A study of Mus musculus with 8 samples.

Results

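The variable segments of the immunoglobulin light chains were examined in peak lists of N6-methyladenosine (m6A) from mouse primary T cells. The members are all genes whose name in either deposited peak list begins with Igkv (kappa V segments) or Iglv (lambda V segments). There were 68 of them, 65 kappa and 3 lambda, among 12413 genes listed in all, and they carried 105 of 52954 peaks. RNA came from control cells or from cells kept with PTC, an agent that is named in the labels without further description. The time given was 24 h for all samples, control and PTC. Each condition had 2 samples immunoprecipitated for m6A and 2 input samples, 8 in all, and no strain, age or genotype is given. The authors deposited 1 peak list per condition and no values per sample, so differences between the lists have no replicate check, no test between conditions was possible, and the read depth is unknown.

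A light chain is encoded by a V segment that is joined to a short J segment by recombination of the DNA in developing B cells, and is then spliced to a constant exon. Each V segment has a leader exon, which encodes the signal peptide, and a V exon, which encodes most of the antigen-binding domain. Mouse B cells use the kappa locus on chromosome 6 far more often than the lambda locus on chromosome 16. T cells rearrange T cell receptor genes, and light chain transcripts are a mark of B cells and plasma cells. m6A, adenosine that carries a methyl group, is deposited mainly within the consensus DRACH, in which H stands for any base but G, D for any base but C, and R for a purine.

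The V exons share stretches of sequence around the form GGACA of this consensus, and these are shown because they recur at fixed places in peaks of different families. Sequences are from GENCODE M21 transcripts on GRCm38 (mm10), read on the coding strand, 5′ to 3′, with GGACA in capitals. In 29 of the 103 V segments annotated as functional, from 10 families, the A of the motif lay 83 nt from the 3′ end of the V exon, counting the last base as 1. GGACA recurred at 3 places in at least 4 members that have a peak in both lists. For each place the 4 of these with the lowest control FDR are printed, a choice made after the values were seen.
Igkv1-135 (chr6:67610412-67610440, plus strand): gcagtggatcagGGACAgatttcacactg
Igkv5-48 (chr6:69726641-69726669, minus strand): gcagtggatcagGGACAgattttactctt
Igkv8-24 (chr6:70216926-70216954, minus strand): gcagtggatctgGGACAgatttcactctt
Igkv3-4 (chr6:70672281-70672309, plus strand): gcagtgggtctgGGACAgacttcaccctc

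A second place, 165 nt from the 3′ end, held GGACA in 12 functional segments of 3 families.
Igkv8-24 (chr6:70217008-70217036, minus strand): cagcagaaaccaGGACAgtctcctaaact
Igkv3-4 (chr6:70672199-70672227, plus strand): caacagaaaccaGGACAgccacccaaact
Igkv3-2 (chr6:70698889-70698917, plus strand): caacagaaaccaGGACAgccacccaaact
Igkv6-17 (chr6:70371815-70371843, plus strand): caacagaaaccaGGACAatctcctaaact

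The last of these places, 205 nt from the 3′ end, held it in 7 segments of 4 families.
Igkv9-120 (chr6:68050238-68050266, plus strand): tcgggcaagtcaGGACAttggtagtagct
Igkv10-96 (chr6:68632153-68632181, minus strand): cagggcaagtcaGGACAttagcaattatt
Igkv14-111 (chr6:68256651-68256679, plus strand): caaggcgagtcaGGACAttaatagctatt
Igkv14-126 (chr6:67896424-67896452, plus strand): caaggcgagtcaGGACAttaaaagctatt

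Of the listed members with GGACA at 83 nt, the control peak covered the A in 17 of 18 and the PTC peak in 9 of 10. At 165 nt it did so in 9 of 9 and 4 of 5, and at 205 nt in 6 of 6 and 5 of 5. Peaks covered most of the V exon in most members, so a covered motif does not place the methylated base.

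Light chain V segments were listed mostly in the control condition. Of the 68 members, 62 had a peak in the control list against 34 in the PTC list. Both lists held 28 members (41.2%, 95% interval 29.4 to 53.8%), the control list only 34 (50%, 37.6 to 62.4%) and the PTC list only 6 (8.82%, 3.31 to 18.2%). Intervals are exact Clopper-Pearson and cover counting error only. Among all listed genes the shares were 79.2% in both, 12.5% in control only and 8.24% in PTC only. The members' share in PTC only was thus near that of all genes, and their share in control only was 4 times larger. The control list is longer, with 29586 peaks against 23368. With the control list cut to the length of the PTC list by false discovery rate (FDR), 27 members were in control only (44.3%, against 7.53% of genes) and 6 in PTC only (against 13.6%). Of 21 B cell marker genes, 14 had peaks under both conditions (Cd79b, Ms4a1 and Pax5 among them), 3 in control only, 1 in PTC only, and 3 (Cd79a, Cd74 and H2-Ab1) nowhere. Of 8 plasma cell markers, 7 (Jchain, Xbp1, Prdm1 and Irf4 among them) were listed for both conditions and Tnfrsf17 for neither. The highest −log10 FDR of these 7 was lower in the PTC list for 4, higher for 2, and infinite in both lists for Irf4. The highest −log10 FDR of those 14 B cell markers was lower in the PTC list for 11 and higher for 3. It was, for control and PTC in turn, 257 and 108 for Ighm, 217 and 134 for Ms4a1, 93.9 and 24.9 for H2-Aa, and 66.1 and 32.8 for Ighd. Cd72 (38.4 and 89.2) was among the 3 that went the other way. Of 17 T cell markers, Trbc2 was in PTC only and 16 were in both lists. Of these 16 the highest −log10 FDR was lower in the PTC list for 5, such as Thy1 (60.9 and 15.5) and Cd8a (76.9 and 50.2). It was higher for 11, such as Trac (8.85 and 26.2), Lat (8.68 and 23.6) and Cd3g (6.10 and 18.5). Among all 9836 genes in both lists it was lower in the PTC list for 39.9%. FDR moves with read depth, which is unknown, so these are descriptions of the lists. The part of B cell content in the listing of V segments was not tested. Of the 4 light chain constant genes in both lists, the highest −log10 FDR was higher in the PTC list for 3 and lower for 0. In bulk RNA, fewer B cells, less light chain RNA per B cell, less m6A on it and a limit of detection cannot be told apart.

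**Figure D1:**
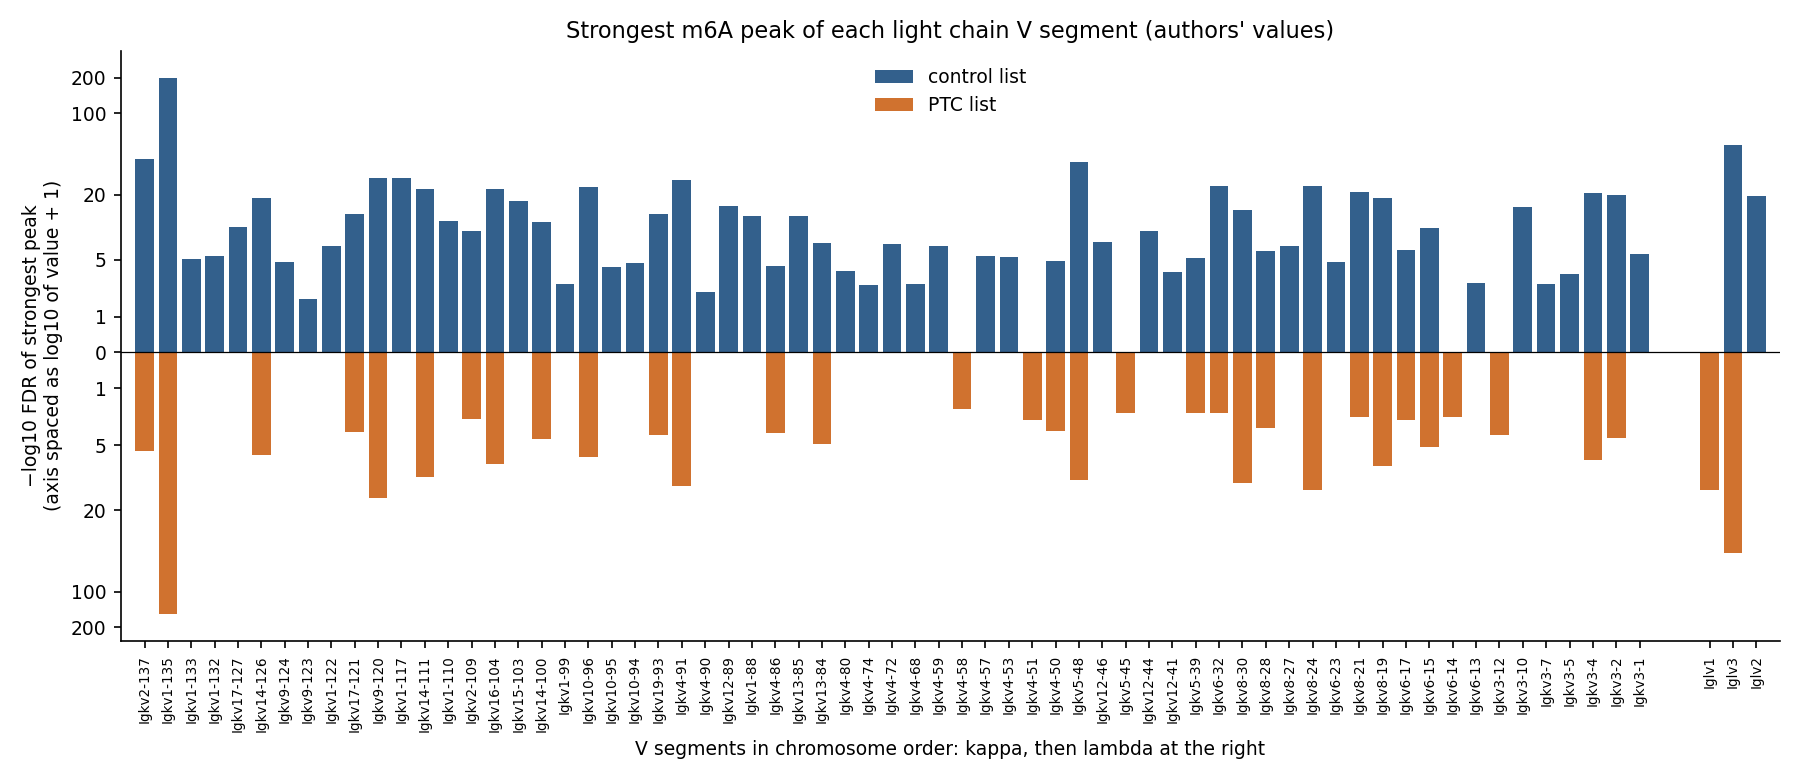
Strongest peak of each light chain V segment as the authors' −log10 FDR, control list upward and PTC list downward, on an axis spaced as the log10 of the value plus 1. Segments follow their order on chromosome 6, with the 3 lambda segments of chromosome 16 at the right; Igkv1-135 stands highest in both lists, at 200 and 154.

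The heavy chain V segments, which B cells also rearrange, and the T cell receptor V segments are the gene groups most like these. Of 67 heavy chain V segments listed, 24 were in control only (35.8%, 24.5 to 48.5%), 5 in PTC only (7.46%) and 38 in both. Of 52 T cell receptor V segments, 11 were in control only (21.2%, 11.1 to 34.7%), 13 in PTC only (25%) and 28 in both. The intervals of the control-only share overlapped between light and heavy chains, and those of light chains and T cell receptor segments did not. With peaks limited to a fold enrichment of 4 or more, the latter overlapped as well, at 37.9 to 72.8% and 24.2 to 55.5%. These intervals do not include the spread between samples, and they take segments as independent although many are close copies. Whether they overlap is therefore no test between the groups. At a −log10 FDR of at least 5, control-only shares were 66.0% for light chains, 63.4% for heavy chains and 14.3% for T cell receptor segments. Of all listed genes 10.6% were in control only at that threshold.

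**Figure D2:**
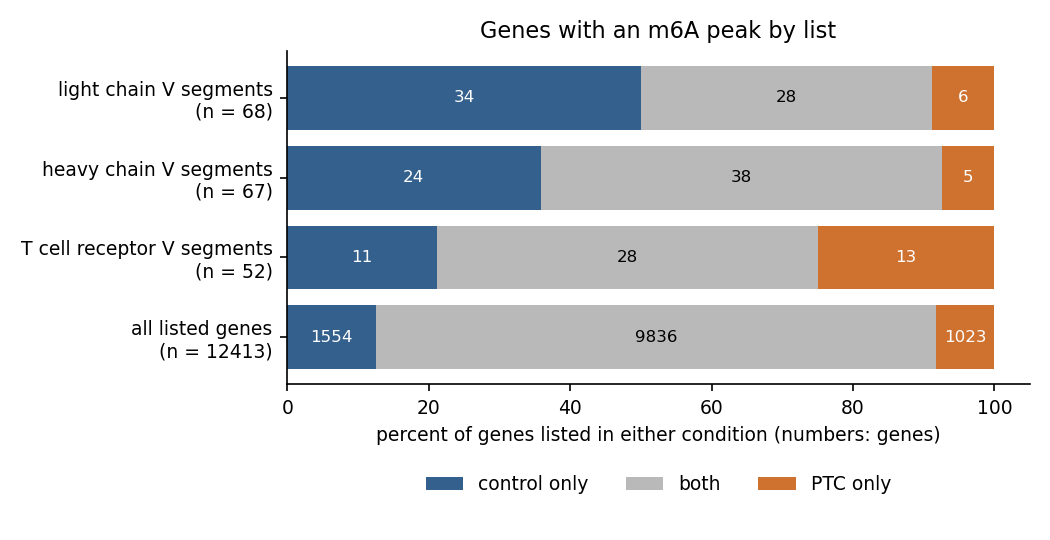
Genes with a peak in the control list only (blue), in both (grey) and in the PTC list only (orange), as percent of the genes of each group listed in either condition, with their number on the bars. The blue part is 50% for light chain V segments and 12.5% for all listed genes.

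Igkv1-135, a kappa V segment near the far end of the locus from the J segments, had the strongest peak of the members in both lists. In the control list its peak (chromosome 6, 67609741 to 67610508, plus strand) had a −log10 FDR of 200, above 99.6% of control peaks, and a fold enrichment of 4.71, above 63.2% of them. Fold enrichment is the authors' linear ratio, taken as immunoprecipitate over input. The PTC peak ran over exactly the same bases, with a −log10 FDR of 154, above 98.4% of PTC peaks, and a fold enrichment of 4.63. Both covered the whole V exon of 313 nt and 53 nt of the leader exon and held 9 DRACH sites. One of these was GGACT, shown here because only 4 of the 103 functional V exons have that form.
Igkv1-135 (chr6:67610371-67610399, plus strand): ggtgtctaaactGGACTctggagtccctg

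The lambda locus gave 3 members, which are all the lambda V segments that the annotation holds. Iglv3 (chromosome 16, 19241207 to 19241690, minus strand) was in both lists, with a peak over its whole annotated length of 381 nt in each. Its −log10 FDR was 53.7 in the control list against 46.7 in the PTC list, and its fold enrichment 2.71 and 3.42. Iglv2 was in the control list only (19260541 to 19260859, −log10 FDR 19.3, fold enrichment 2.31), and Iglv1 in the PTC list only (19085212 to 19085500, 13.2, 3.09).

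Iglv1 and Iglv2 are near-identical copies, and their opposite listing is therefore uncertain. Their V exons differ at 9 of 305 bases and share a run of 104 nt. Positions are counted from the 5′ end of the V exon with the base of Iglv1 first. The 4 differences inside both peaks were G2A, T7G, A58G and C67T. The first 30 bases are printed with the differing bases in capitals.
Iglv1 (chr16:19085292-19085321, minus strand): gGgccaTttcccaggctgttgtgactcagg
Iglv2 (chr16:19260676-19260705, minus strand): gAgccaGttcccaggctgttgtgactcagg

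The next kappa segments of the control list had peaks over all or most of the V exon and part or all of the leader. They were Igkv2-137 (−log10 FDR 40.9), Igkv5-48 (38.3), Igkv9-120 (28.2), Igkv1-117 (28.1), Igkv4-91 (27), Igkv6-32 (23.7), Igkv8-24 (23.6) and Igkv10-96 (23.1). Of these 8 only Igkv1-117 lacked a peak in the PTC list. In the PTC list the strongest after Igkv1-135 and Iglv3 were Igkv9-120 (15.6), Iglv1 and Igkv8-24 (both 13.2), Igkv4-91 (12.2), Igkv8-30 (11.4), Igkv5-48 (10.8), Igkv14-111 (9.98) and Igkv8-19 (7.87). Igkv6-32 lay above 84.1% of control peaks and above 4.9% of PTC peaks by FDR.

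The PTC peak of Igkv9-120 (chromosome 6, 68050192 to 68050456, plus strand) is shown whole, as a peak of 1 exon block in a member strong in both lists. It has 265 bases, and its 5 DRACH sites are in capitals.
Igkv9-120 (chr6:68050192-68050456, plus strand): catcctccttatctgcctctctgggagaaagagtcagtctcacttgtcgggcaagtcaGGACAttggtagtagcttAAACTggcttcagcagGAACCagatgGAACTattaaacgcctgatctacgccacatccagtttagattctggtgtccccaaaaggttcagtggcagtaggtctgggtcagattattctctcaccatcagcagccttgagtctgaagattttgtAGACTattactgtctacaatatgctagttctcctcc
The control peak of the same segment reached further in the 5′ direction (68050012 to 68050456), over the whole V exon and 26 nt of the leader.

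Members in the control list only were not all weak. Of the 34, 20 reached a −log10 FDR of 5 in the control list (58.8%), against 20.9% of all control-only genes. The median of their highest −log10 FDR was 5.43, against 3.17 for all control-only genes, and 19.2 for the 28 members in both lists. The 6 strongest were Igkv1-117, Iglv2, Igkv15-103 (−log10 FDR 17.4, fold enrichment 3.55), Igkv12-89 (15.8, 6.18), Igkv3-10 (15.6, 5.18) and Igkv1-88 (13.0, 9.72). For Igkv15-103 the nearest relative among functional segments, Igkv11-125, has 75.2% identity over the V exon and is in neither list. Pseudogenes were not compared. Igkv3-10 has 98.1% identity with Igkv3-5, which is also in control only.

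The 6 members in the PTC list only had weak peaks except for Iglv1, as PTC-only genes mostly did. Of the 6, 1 reached a −log10 FDR of 5 in the PTC list, against 20.4% of all PTC-only genes, and the median was 2.57, against 3.12. Their highest −log10 FDR was 3.93 for Igkv3-12, 2.65 for Igkv4-51, 2.49 for Igkv6-14, 2.21 for Igkv5-45 and 1.96 for Igkv4-58. Fold enrichment was high in some of them, at 13.6 for Igkv4-51, 10.5 for Igkv6-14 and 7.78 for Igkv3-12. All 6 had a close relative among functional segments, with 94.0 to 99.0% identity. For Iglv1, Igkv3-12 and Igkv6-14 that relative was listed in the control condition, as Iglv2, Igkv3-7 and Igkv6-23. For Igkv5-45 the nearest was Igkv5-43, in neither list, with 99.0% identity and a shared run of 193 nt.

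Within each list, fold enrichment of the members was like that of other peaks, and their FDR rank differed between the lists. Member peaks had a median fold enrichment of 3.44 in the control list (range 1.69 to 23.2), against 3.65 for all control peaks. In the PTC list it was 3.66 (1.95 to 19.6), against 3.66. The median −log10 FDR of member peaks was 7.36 in the control list, above the 5.47 of all control peaks. In the PTC list it was 4.29, below the 6.61 of all PTC peaks. Of the 28 members in both lists, 26 reached a −log10 FDR of 5 in the control list (92.9%, against 81.2% of all genes in both lists). In the PTC list 15 did (53.6%, against 81.7%). The highest −log10 FDR was lower in the PTC list for all 28, against 39.9% of the 9836 genes in both lists. Read depth is unknown, so this describes the lists only. With a −log10 FDR of at least 5 required in both lists, 31 members were in control only, 15 in both and 1, Iglv1, in PTC only. Only peaks that pass the threshold count here. The 31 thus include members with a weaker PTC peak, such as Igkv6-32 (23.7 and 2.21). Of the 34 members without any PTC peak, 20 reached 5. Of all genes listed at this threshold, 10.6% were in control only, 79.5% in both and 9.86% in PTC only. At a fold enrichment of at least 4 in both lists 19 members were in control only, 8 in both and 7 in PTC only, against 24.6%, 59.4% and 16% of genes.

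**Figure D3:**
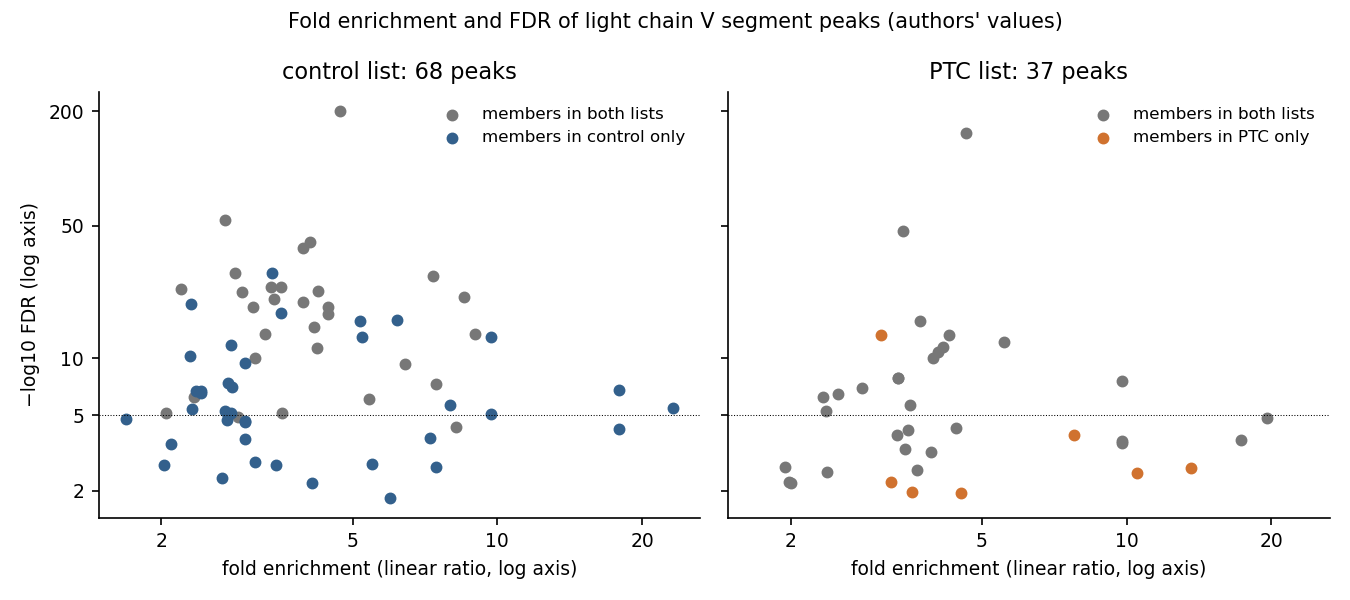
Fold enrichment (horizontal, log axis) and −log10 FDR (vertical, log axis) of each member peak in the control list (left, 68 peaks) and the PTC list (right, 37 peaks), grey for members in both lists and coloured for members in that list only. The dotted line marks a −log10 FDR of 5, which of the PTC-only members only Iglv1 passes.

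Where both lists held a member, the PTC peak mostly lay inside the control peak. All 28 members in both lists had overlapping peaks, while 521 of the 9836 genes in both lists did not. In 21 of the 28 (75%) the PTC peak lay wholly inside a longer control peak, in 2 (Igkv14-111 and Igkv5-48) the reverse held, in 3 the extents were identical, and in 2 each reached beyond the other. Among all genes with shared bases the PTC peak lay inside in 20.4%. Among the 26 members with 1 peak in each list 19 were nested in this way (73.1%), against 35.3% of such genes. Control peaks covered a median of 87.2% of the V exon and PTC peaks 65.8%. How much overlap and nesting this cover alone would give was not tested. The genes compared were not matched for length, and the part of segment size in these shares was not tested. The peaks of the 28 members had a median of 329.5 nt in the control list (174 to 381) and 232 nt in the PTC list (116 to 381). At the level of peaks, 30 of 68 control peaks (44.1%, 32.1 to 56.7%) were overlapped by a PTC peak, against 60.2% of all control peaks. In the other direction it was 30 of 37 (81.1%, 64.8 to 92.0%), against 78.8%.

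All 105 member peaks had their midpoint in the V exon, which makes up most of the annotated segment. Of the peak bases, 90.5% in the control list against 91.9% in the PTC list were V exon, and the rest leader exon. The peak reached the leader exon in 43 of 62 control members (69.4%) and 16 of 34 PTC members (47.1%). Among the 28 members in both lists it did so in 25 and 15. The V exon was divided into 10 equal bins, numbered from the 5′ end. Cover was highest in bin 4, with 95.2% of bases inside a control peak and 88.3% inside a PTC peak. It was lowest in bin 10, at the 3′ end, with 47.3% and 41.3%. Bin 1 had 79.0% and 50.6%. Of the control peaks 31 of 68 ended at the last annotated base of the V exon, where the J segment is joined in the rearranged gene, and 15 of 37 PTC peaks did.

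**Figure D4:**
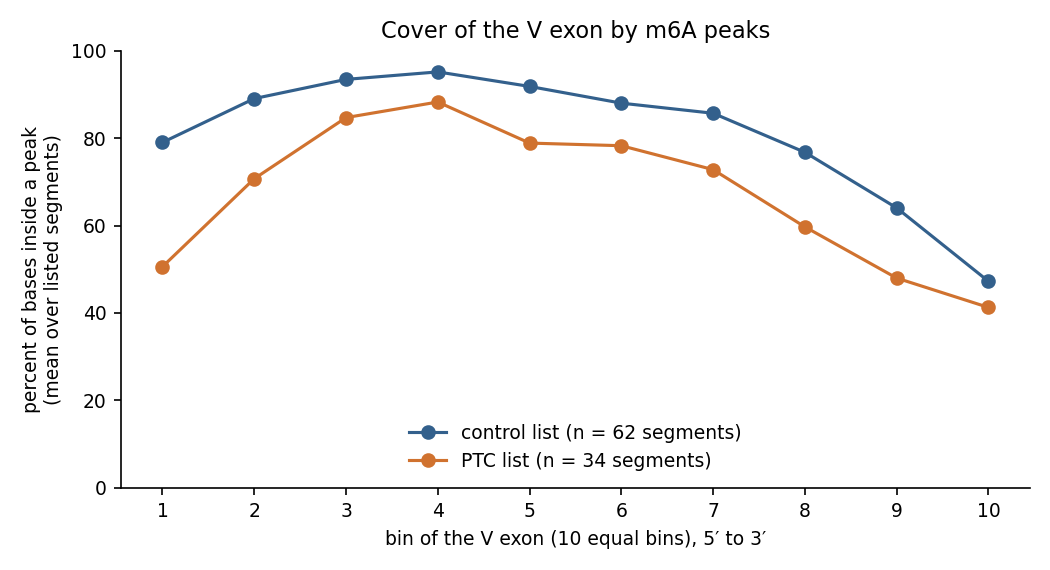
Percent of bases of each of 10 equal bins of the V exon, 5′ to 3′, that lay inside a peak, as the mean over the 62 control and 34 PTC members. Cover is highest in bin 4 (95.2% and 88.3%) and lowest in bin 10 (47.3% and 41.3%).

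No member had more than 2 peaks, and second peaks were repeats over the same bases. In the control list 6 members had 2 peaks and in the PTC list 3. All of these segments have 2 annotated transcripts, and the 2 peaks shared at least 99.2% of the shorter one in the control list against 98.0% in the PTC list. Igkv8-19 is an example. Its control peaks ended together at 70340876 on the minus strand, began at 70341180 and 70341425, and had the same fold enrichment of 4.45. Igkv4-53, Igkv6-13 and Igkv8-27 had such pairs in the control list, and Igkv4-58 in the PTC list. Of the control members 18 have 2 annotated transcripts, so most such segments still had 1 peak.

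DRACH was present in all 68 control member peaks (94.7 to 100%) and in 34 of 37 PTC member peaks (91.9%, 78.1 to 98.3%). The median was 5 sites per control peak and 4 per PTC peak. Among all peaks with full sequence, 97.4% of control peaks and 97.8% of PTC peaks held a site. The PTC peaks of Igkv4-91, Igkv4-50 and Igkv5-45 held none. Windows of 50 nt to either side of the midpoint allow a comparison at equal length. DRACH was in 92.6% of control and 86.5% of PTC member windows, against 87.0% and 88.7% of windows of all peaks. GGACT was in 2.94% and 2.70% of member windows, against 11.6% and 12.9%. GGACA was in 26.5% (16.5 to 38.6%) and 27% (13.8 to 44.1%), against 13.7% and 14.9%. Motifs were searched on the transcript strand, and GGACT and GGACA are both forms of DRACH. Functional segments without a peak held GGACA as well, in 29 of 35 (82.9%), compared with 43 of the 68 members. Since V segments descend from common copies, these are not independent observations of the motif.

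Kappa members came from 16 of the 20 families that have a functional segment, a family being the number after Igkv. The control list held all 16 and the PTC list 14. In 11 families more members were in the control list, in 4 the numbers were equal, and in 1, Igkv5, more were in the PTC list (3 against 2). Igkv1 had 8 of 10 functional segments in the control list and 1, Igkv1-135, in the PTC list. Igkv12 had 4 of 6 and none. In contrast all 3 listed Igkv14 segments and both listed Igkv2 segments were in both lists, and Igkv8 had 6 in the control list against 5 in the PTC list. Igkv4, the largest family, had 11 of 26 in the control list against 5 in the PTC list, and 13 of its segments were in neither. Of the families with 1 functional segment, Igkv16 and Igkv19 were in both lists, Igkv15 was in control only, and Igkv7, Igkv11, Igkv18 and Igkv20 were in neither.

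**Figure D5:**
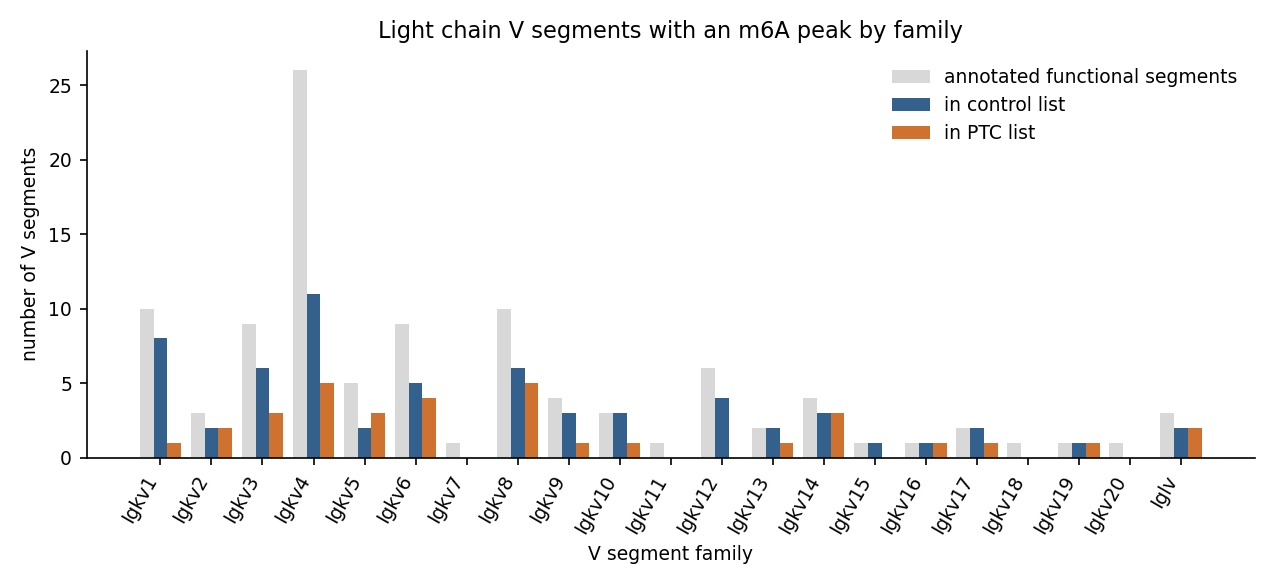
Number of light chain V segments per family that are annotated as functional (grey), in the control list (blue) and in the PTC list (orange). Igkv1 has 8 in the control list against 1 in the PTC list, and Igkv12 has 4 and 0.

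Members were spread over the whole kappa locus. The 100 functional kappa segments lie between 67555497 and 70704177 of chromosome 6, and were divided by order into stretches of 34, 33 and 33. In the stretch farthest from the J segments (Igkv2-137 to Igkv12-89) 26 were in the control list against 12 in the PTC list. In the middle stretch (Igkv1-88 to Igkv5-39) the numbers were 17 and 8, and in the stretch nearest the J segments (Igkv12-38 to Igkv3-1) 17 and 12. Segments of both orientations were listed. Of 38 on the plus strand, the strand of Igkc, 26 were in the control list against 14 in the PTC list, and of 62 on the minus strand, which join by inversion, 34 and 18. All 68 members are annotated as functional V genes, and the other 35 of the 103 functional segments had no peak. Of 60 annotated pseudogenes, 2 without a name in the lists, Igkv4-77 and Igkv4-60, had a weak control peak (−log10 FDR 1.90 and 3.11) and lie outside the members.

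Many members are close copies, so their reads may be shared between segments. Of the 68, 51 had another functional segment with at least 90% identity over the V exon and 32 one with at least 95%. The longest run shared with the nearest relative had a median of 65.5 nt (15 to 193). Of the 34 control-only members, the nearest relative was also control only for 19, listed for PTC for 8 and in neither list for 7. How the authors treated reads that map to several places is not given in the sources used here.

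The constant genes, to which every V segment is spliced, were listed in both conditions. Igkc, the kappa constant exon, had a peak over the same bases in both lists (chromosome 6, 70726435 to 70726936) whose log10 FDR was listed as minus infinity in each. Its fold enrichment was 2.00 and 2.23. The lambda constant genes Iglc1, Iglc2 and Iglc3 had 1 peak in each list, with −log10 FDR of 56.9, 82.4 and 59.6 in the control list and 67.2, 112 and 89.9 in the PTC list. Iglc4 had none. None of the J segments Igkj1 to Igkj5 and Iglj1 to Iglj4 had a peak. Annotated light chain J segments are 38 to 43 nt long, and the shortest peak of either list was 108 nt.

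Genes of light chain expression and B cell receptor signalling were in both lists about as often as other genes. Of 30 such genes 23 had a peak, and for 19 of them, Igkc and Iglc1 to Iglc3 included, both lists held one, against 79.2% of all listed genes. Another 3 were listed for control only, and 1 for PTC only. Those in control only were the adaptor gene Blnk (−log10 FDR 10.8), the coactivator gene Pou2af1 (4.64) and the transcription factor gene Spib (4.04). Vpreb3 was in PTC only (10.8). The recombinase genes Rag1 and Rag2, active where light chains are rearranged, had no peak. Peak lists give no level of expression.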

How the data were processed

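The authors deposited 1 peak list per condition, control and PTC. Per the file headers each peak has exon blocks, a gene, a strand, a p-value, its log10, a log10 FDR (both log columns treated as a score) and a fold enrichment. Per the submitters' processing notes, BWA 0.7.12 and MACS2 2.1.0 were used with build GRCm39, with no role given. The sources used here give neither the caller nor its threshold, nor whether samples were pooled. The deposited p-value was not used further. Since 99.9% of control and 99.8% of PTC peaks, and all member peaks, lay inside the same gene of GENCODE M21, coordinates were read as GRCm38, counted from 1.

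Peaks were compared with Python 3.11.15 and SciPy 1.17.1 over exon blocks on the same strand, with at least 1 bp shared. The V exon is the longest last exon of a segment, and identity is 1 minus the edit distance over the longer V exon, as percent. Named members are all Iglv segments, the 10 strongest of each list, the 6 strongest in each list only, up to 4 with the most peaks per list, and the light chain constant and J genes; others are named for families, relatives or printed sequences after their values were seen. Members and lists were chosen with earlier results of these data known. The functions were tested on simulated data. No expression test was run, since the lists hold no counts.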

Additional observations from a re-analysis of the deposited data

How the results depend on the processing

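Of 46 values recomputed under other settings, 29 stayed within 1.5 times the count or within the interval of the main value, and 17 did not. Some of the 29 could not change. All members are functional V genes, so a limit to these left the counts as they were, and equal list length left the PTC list uncut. More members were in control only than in PTC only at each peak threshold tried. At a −log10 FDR of at least 5, 1 member was in PTC only and 15 in both, and the PTC list held 17 member peaks. At this threshold 32.0% of control and 94.1% of PTC member peaks were overlapped, against 70.8% and 83.0% of all peaks. At a fold enrichment of at least 4, 19 members were in control only and 8 in both, over 28 control and 15 PTC member peaks. Of these peaks 28.6% and 53.3% were overlapped, against 48.6% and 61.2% of all peaks. In midpoint windows, which are shorter than the peaks, motif shares were 92.6% (DRACH, control), 2.94% and 2.70% (GGACT), and 26.5% and 27% (GGACA). By bases instead of midpoints, 90.5% of control peak sequence was V exon. No paired analysis was possible because the lists hold no values per sample, and for the same reason no sample could be left out. The causes of these changes were not tested beyond that. Depth is unknown, so a segment missing from a list may have been below detection there.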

Other observations

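Some fold enrichments recurred exactly among the members. In the control list 2.99 was printed for 4 peaks and 17.9 and 9.72 for 2 each, and in the PTC list 9.79 was printed for 3 (Igkv17-121, Igkv16-104 and Igkv4-50). The member with the highest fold enrichment in the control list, Igkv1-132 (23.2), had a −log10 FDR of 5.45, and that in the PTC list, Igkv13-84 (19.6), had 4.81. These genes were chosen after their values were seen.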
